A study of Arabidopsis thaliana with 4 samples.

Results

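The gibberellin oxidase genes described here are 10 genes of Arabidopsis thaliana, all found by identifier among the 33602 genes of the deposited table. They comprise 3 genes for 20-oxidases (GA20OX1, GA20OX2 and GA20OX3), 2 for 3-oxidases (GA3OX1 and GA3OX2) and 5 for 2-oxidases (GA2OX1, GA2OX2, GA2OX4, GA2OX6 and GA2OX8). Polyadenylated RNA of whole seedlings was sequenced in 4 libraries, 2 from wild type (WT, accession Col-0) and 2 from the jmj28-3 line. All seedlings were 12 days old and had been raised at 23 °C on Murashige and Skoog medium at reduced strength with 1% sucrose, under days of 16 h light and 8 h dark. The jmj28-3 allele affects JMJ28, a protein with a jumonji domain. The sources used here do not give the kind of lesion, the number of seedlings per library or the hour of harvest. Nothing in the labels says whether replicates were grown separately, and p-values then reflect only the spread between these libraries, which may be technical.

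Gibberellins are diterpenoid hormones that promote germination, stem elongation and, in Arabidopsis, flowering. The 20-oxidases and then the 3-oxidases carry out the last oxidations that make the bioactive forms, and the 2-oxidases add a hydroxyl group that inactivates them or their precursors. Bioactive gibberellin binds GID1 receptors, which leads to the breakdown of DELLA repressors. In the known feedback of this pathway, low hormone raises transcripts of certain 20-oxidase and 3-oxidase genes, and high hormone raises those of certain 2-oxidase genes.

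The values are FPKM, the authors' fragment counts scaled by transcript length and library size, so levels can be set side by side between genes. Sums of FPKM ran from 983897 to 991510 over the libraries, and the sources used here do not give the number of reads behind them. JMJ28 (AT4G21430) itself stood at 3.80 and 5.54 FPKM in the WT libraries and at 3.65 and 3.33 in the jmj28-3 libraries (log2 change -0.32, SE 0.172, adjusted p = 0.327 in limma), so its transcript does not check the genotype labels. All 6 root markers and all 4 green tissue markers of whole seedlings were above 0 in every library. Floral organ markers summed to at most 0.77 FPKM and seed markers to at most 0.15 FPKM in a library. The shoot apex gene WUS was listed at 0 in all 4 libraries and CLV3 in all but jmj28-3 replicate 1. The other shoot apex markers, KNAT1 and STM, were above 0 in every library, at 5.84 to 7.04 and 1.21 to 1.92 FPKM. Of 20232 tested genes, limma put 846 higher and 767 lower in jmj28-3, with a threshold of 0.05 on the adjusted p.

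GA3OX2 was the only tested member called by limma. It was 3.31-fold lower in jmj28-3, while its close relative GA3OX1 stayed the most abundant of the 10 genes in both genotypes. Among the 20-oxidases, the mean of GA20OX1 was lower and that of GA20OX2 higher in jmj28-3, without overlap between genotypes, but neither passed the test over all genes. Of the 10 members, 8 reached the mean of 0.5 FPKM required for a test, and GA20OX3 and GA2OX4 did not. Limma called 1 of the 8 lower and 0 higher, where 3.79% of all tested genes were called lower, 4.18% higher and 7.97% in either direction. At an unadjusted p under 0.05, 4 of the 8 differed, namely GA20OX1, GA20OX2, GA3OX2 and GA2OX2, where 24.2% of all tested genes did.

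GA3OX2 (AT1G80340) makes bioactive gibberellin during vegetative growth together with GA3OX1. In TAIR10.1 it occupies bases 30200466 to 30202349 of chromosome 1, minus strand, with 2 exons in its 1 annotated transcript. Its FPKM was 3.46 and 3.33 in the WT libraries and 1.14 and 0.91 in the jmj28-3 libraries. Both jmj28-3 libraries lay far below both WT libraries, and replicates were close to each other. The means were 3.40 ± 0.0919 and 1.02 ± 0.163 FPKM (SD, n = 2), 3.31-fold lower in jmj28-3, and limma gave a log2 change of -1.12 (SE 0.135, 95% interval -1.46 to -0.78, adjusted p = 0.011). Only 0.465% of tested genes had a more negative log2 change. In whole seedlings, fewer cells that express a gene and less RNA per cell cannot be told apart. Fits on 3 libraries leave 1 genotype with a single library, which is assumed to vary like the 2 libraries of the other. They gave a difference of like size but did not pass, with log2 changes of -1.10 and -1.14 on leaving out WT replicate 1 or 2 (adjusted p = 0.0761 and 0.0653) and of -1.20 and -1.04 on leaving out jmj28-3 replicate 1 or 2 (adjusted p = 0.0592 and 0.1).

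GA3OX1 (AT1G15550, chromosome 1, 5344388 to 5346342, minus strand, 2 exons) is the other 3-oxidase of vegetative tissue. Its FPKM was 11.7 and 13.26 in the WT libraries and 13.14 and 15.62 in the jmj28-3 libraries. The genotypes overlapped, since jmj28-3 replicate 1 lay just below WT replicate 2. The log2 change was 0.19 (SE 0.112, 95% interval -0.09 to 0.47, adjusted p = 0.376 in limma). The difference between the responses of this pair was not tested. As a share of the summed 3-oxidase FPKM, GA3OX2 took 22.8% and 20.1% in the WT libraries and 7.98% and 5.51% in the jmj28-3 libraries. The sum itself overlapped between genotypes, at 15.2 and 16.6 FPKM in the WT libraries and 14.3 and 16.5 in the jmj28-3 libraries. GA3OX1 thus exceeded GA3OX2 by 3.38 and 3.98 times in the WT libraries and by 11.5 and 17.2 times in the jmj28-3 libraries. The coding sequences of this pair were 76.6% identical over 1044 aligned bases, and no stretch of 31 bases of either transcript occurred in a transcript of another gene.

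**Figure D1:**
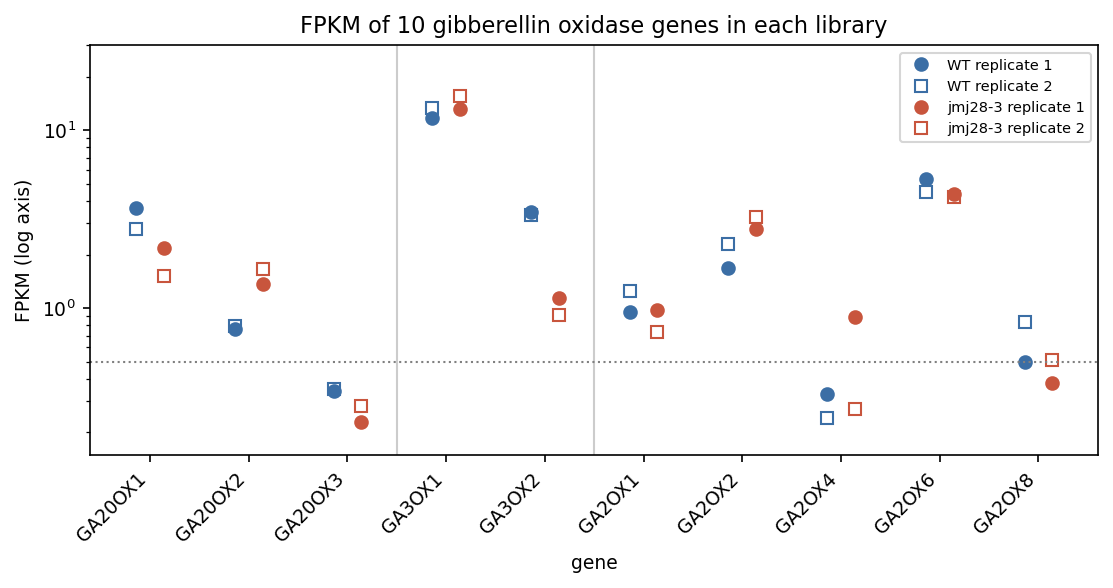
FPKM (log axis) of each of the 10 genes in each library, with WT in blue and jmj28-3 in red, replicate 1 filled and replicate 2 open; vertical lines part the 20-oxidases, 3-oxidases and 2-oxidases, and the dotted line is the mean of 0.5 FPKM required for a test. GA3OX2 lay at 3.46 and 3.33 in WT and at 1.14 and 0.91 in jmj28-3, and GA3OX1 was above all other members in every library.

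GA20OX1 (AT4G25420, chromosome 4, 12990851 to 12992585, minus strand) encodes the 20-oxidase known for its role in stem elongation. Its FPKM was 3.64 and 2.80 in the WT libraries and 2.19 and 1.52 in the jmj28-3 libraries. Every jmj28-3 value was below every WT value, with a wide gap between replicates in both genotypes. The mean was 1.74-fold lower in jmj28-3 (log2 change -0.57, SE 0.179, 95% interval -1.01 to -0.12, unadjusted p = 0.0216, adjusted p = 0.128 in limma), which did not pass.

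GA20OX2 (AT5G51810, chromosome 5, 21055179 to 21056881, minus strand), a 20-oxidase known to contribute to flowering time with GA20OX1, had 0.76 and 0.79 FPKM in the WT libraries and 1.37 and 1.65 in the jmj28-3 libraries. The WT replicates were nearly equal and both jmj28-3 libraries were above them. The mean was 1.95-fold higher in jmj28-3 (log2 change 0.50, SE 0.152, 95% interval 0.12 to 0.88, unadjusted p = 0.0192, adjusted p = 0.12 in limma), which did not pass either. GA20OX3 (AT5G07200, chromosome 5, 2243553 to 2245339, minus strand) had 0.34 and 0.35 FPKM in the WT libraries and 0.23 and 0.28 in the jmj28-3 libraries, too low for the test. In a fit on every gene above 0 its log2 change was -0.10 (SE 0.0666, adjusted p = 0.48 in limma).

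The shares of the 20-oxidase genes shifted towards GA20OX2 in both jmj28-3 libraries. GA20OX1 held 76.8% and 71.1% of the summed 20-oxidase FPKM in WT and 57.8% and 44.1% in jmj28-3. GA20OX2 held 16% and 20.1% in WT and 36.1% and 47.8% in jmj28-3. GA20OX1 was above GA20OX2 in all libraries but jmj28-3 replicate 2, in which the ratio was 0.921. The sums were 4.74 and 3.94 FPKM in the WT libraries and 3.79 and 3.45 in the jmj28-3 libraries, lower in jmj28-3 without overlap. With 2 libraries per genotype an exact permutation test of such a share cannot go below a two-sided p of 0.333, so shares and sums are given without a test. GA20OX1 and GA20OX2 were the members with the most similar coding sequences, 79.4% identical over 1122 aligned bases, and shared no stretch of 31 bases with each other or with another gene's transcript.

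**Figure D2:**
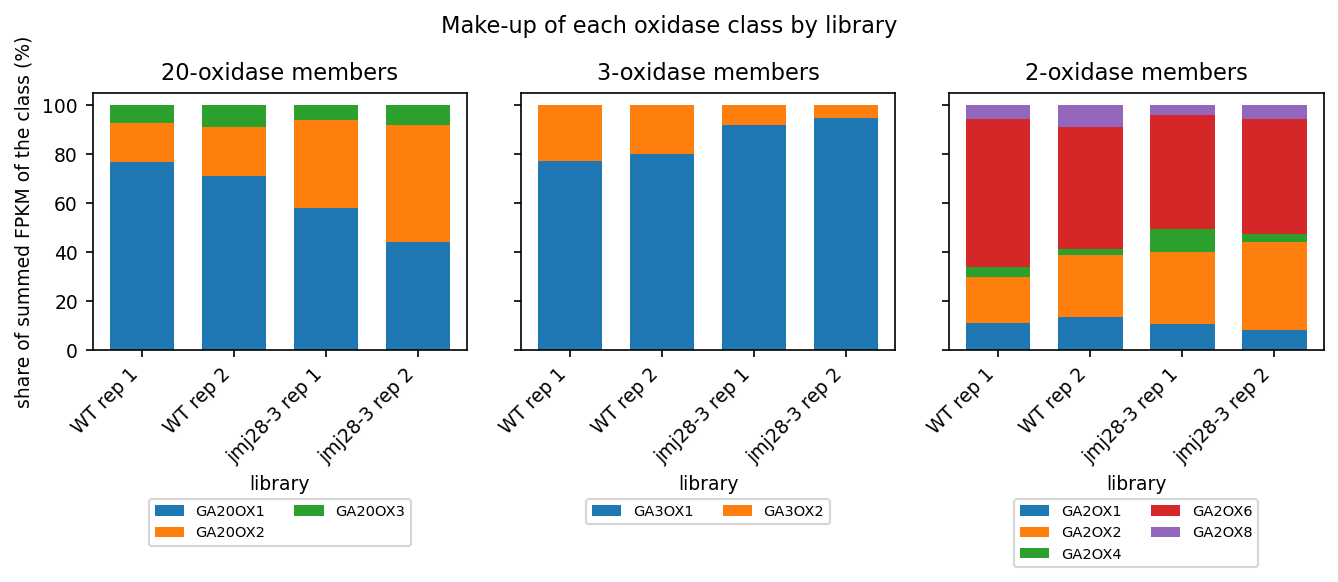
Share of the summed FPKM of each oxidase class (percent) that each member made up, with a bar for each library and a panel for each class. GA3OX2 took 22.8% and 20.1% of the 3-oxidase sum in WT and 7.98% and 5.51% in jmj28-3, and GA20OX2 took 16% and 20.1% of the 20-oxidase sum in WT and 36.1% and 47.8% in jmj28-3.

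Of the 5 genes for 2-oxidases, 4 were tested and 0 were called by limma, with 1 at an unadjusted p under 0.05. GA2OX6 (AT1G02400, chromosome 1, 486800 to 489651, plus strand) was the most abundant of them, at 5.35 and 4.51 FPKM in the WT libraries and 4.36 and 4.23 in the jmj28-3 libraries. Its jmj28-3 values lay just below the lower WT value (log2 change -0.16, SE 0.116, 95% interval -0.45 to 0.13, adjusted p = 0.465 in limma). GA2OX2 (AT1G30040, chromosome 1, 10537457 to 10540044, plus strand), which inactivates bioactive gibberellins and their direct precursors, had 1.68 and 2.28 FPKM in the WT libraries and 2.78 and 3.24 in the jmj28-3 libraries. Both jmj28-3 libraries were above both WT libraries, 1.52-fold in the mean (log2 change 0.43, SE 0.155, 95% interval 0.05 to 0.82, unadjusted p = 0.0345, adjusted p = 0.168 in limma).

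GA2OX1 (AT1G78440, chromosome 1, 29511561 to 29513100, minus strand) had 0.95 and 1.24 FPKM in the WT libraries and 0.98 and 0.73 in the jmj28-3 libraries. GA2OX8 (AT4G21200, chromosome 4, 11302682 to 11306770, plus strand), of the branch of 2-oxidases that acts on early precursors, had 0.50 and 0.83 in the WT libraries and 0.38 and 0.51 in the jmj28-3 libraries. Both overlapped between genotypes, with log2 changes of -0.18 (95% interval -0.60 to 0.25, adjusted p = 0.592 in limma) and -0.20 (95% interval -0.67 to 0.27, adjusted p = 0.585 in limma). GA2OX4 (AT1G47990, chromosome 1, 17698598 to 17701041, plus strand) had 0.33 and 0.24 FPKM in the WT libraries and 0.89 and 0.27 in the jmj28-3 libraries, so its higher jmj28-3 mean came from replicate 1. Of its 1200 stretches of 31 bases, 3 also occur in AT3G17200, and no other member shared any with another gene. In the fit on every gene above 0 it had a log2 change of 0.27 (SE 0.208, adjusted p = 0.536 in limma). The 2-oxidase sum was 8.81 and 9.10 FPKM in the WT libraries and 9.39 and 8.98 in the jmj28-3 libraries, which overlapped.

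**Figure D3:**
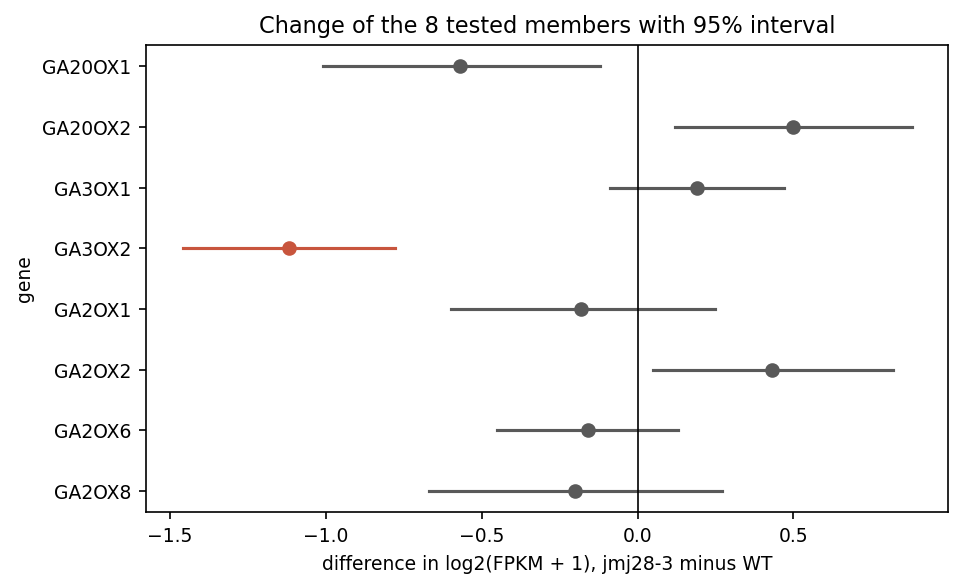
Difference in log2(FPKM + 1) between jmj28-3 and WT for the 8 tested members, as points with 95% intervals from limma that are not adjusted for the number of genes; red marks an adjusted p under 0.05. GA3OX2 stood at -1.12, and the intervals of GA20OX1, GA20OX2 and GA2OX2 also left out 0 although their adjusted p did not pass.

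In order of level, GA3OX1 came first and GA2OX6 second in both genotypes, each clear of its lower neighbour. GA3OX2 was the third in WT, with a range that overlapped that of GA20OX1. In jmj28-3 it was the sixth, behind GA2OX2, GA20OX1 and GA20OX2, and overlapped GA2OX1. The lowest members were GA2OX4 in WT, at a mean of 0.285 FPKM, and GA20OX3 in jmj28-3, at 0.255 FPKM. Summed over all 10 genes, the libraries held 28.7 and 29.6 FPKM in the WT libraries and 27.5 and 29.0 in the jmj28-3 libraries. Mean levels over the 4 libraries placed GA3OX1 above 62.9% and GA20OX3 above 13.7% of the 24239 genes with any signal. For genes with transcripts as long as those of the members, 1230 to 2014 bases, the most frequent low value above 0 was 0.03 or 0.04 FPKM, which sets the scale on which members near 0.3 FPKM are read.

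For 5 of the 8 tested members the genotypes had no overlap in FPKM, 2 with jmj28-3 above WT and 3 below, where 55.2% of all tested genes did not overlap, 22.4% above and 32.7% below. The median absolute log2 change was 0.32 over the 8 members and 0.13 over all tested genes. The signed medians were -0.17 and -0.03. The members were not compared with genes of like level. Apart from GA3OX1, each tested member had a mean level above at most 39.3% of genes with any signal.

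Of 6 root markers, 1 was called lower, where 3.79% of all tested genes were. It was SCR, a factor of the root endodermis, at 22.34 and 21.3 FPKM in the WT libraries and 16.74 and 16.65 in the jmj28-3 libraries (log2 change -0.37, adjusted p = 0.0364 in limma). The root hair genes EXPA7 and COBL9 had log2 changes of -0.45 and -0.48 (adjusted p = 0.0973 and 0.0956 in limma). PYK10, PLT1 and SHR had log2 changes of -0.06, -0.20 and -0.04 (adjusted p = 0.492, 0.516 and 0.877 in limma), and SHR overlapped between genotypes. The mean log2(FPKM + 1) of all 6 was lower in jmj28-3, as was that of 11445 of the 20232 tested genes. The summed root markers were 1279 and 1244 FPKM in the WT libraries and 1226 and 1172 in the jmj28-3 libraries, most of it from PYK10, and none was at 0. The part of root tissue in the GA3OX2 result was not tested. The median log2 change of the root markers was -0.28, against -1.12 for GA3OX2. All 4 green tissue markers also had lower means in jmj28-3, and 1 was called, GLK1, a regulator of chloroplast development (log2 change -0.65, adjusted p = 0.0264 in limma). Their sums overlapped between genotypes, at 37091 and 34176 FPKM in WT against 34364 and 33930 in jmj28-3. Most of each sum came from RBCS1A (log2 change -0.04, adjusted p = 0.739 in limma).

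The 3 tested genes nearest to GA3OX2 in profile were listed, by Euclidean distance between mean-centred log2(FPKM + 1) values over the 4 libraries. The number 3 was set beforehand. Over so few libraries a short distance mainly means a like difference between genotypes on this scale, and shared regulation was not tested. The nearest was AT3G21670, a gene for a major facilitator superfamily protein, with 59.35 and 56.91 FPKM in the WT libraries and 29.08 and 26.12 in the jmj28-3 libraries (distance 0.0724). Next were AT2G19650, for a protein with a cysteine and histidine rich C1 domain, at a distance of 0.091, and CYP707A2 (AT2G29090), which encodes an enzyme of abscisic acid breakdown, at 0.0923. CYP707A2 had 10.63 and 10.14 FPKM in the WT libraries and 4.13 and 3.84 in the jmj28-3 libraries. The scale understates the change of low genes, so the fold values were less alike than the distances. Mean FPKM was 3.31-fold lower in jmj28-3 for GA3OX2, 2.11-fold for AT3G21670, 2.72-fold for AT2G19650 and 2.61-fold for CYP707A2. The closest other member was GA20OX1, ranked 479 among the tested genes.

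The tested genes for steps before the oxidases showed no called change. Of 5 genes of early gibberellin biosynthesis, 4 were tested and 0 were called, with log2 changes from -0.06 to 0.11 and adjusted p in limma of at least 0.49. KO (AT5G25900), for ent-kaurene oxidase, had 18.2 and 18.16 FPKM in the WT libraries and 19.21 and 19.5 in the jmj28-3 libraries. KAO2 (AT2G32440), for an ent-kaurenoic acid oxidase, had 14.62 and 15.79 in the WT libraries and 15.21 and 13.89 in the jmj28-3 libraries. At an unadjusted p under 0.05, 0 of the 4 tested genes differed. CPS (AT4G02780) was too low for the test, at 0.42 and 0.55 FPKM in the WT libraries and 0.3 and 0.39 in the jmj28-3 libraries.

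Of 8 other oxidase genes on the list, 7 were too low for a test, with values from 0 to 0.17 FPKM, and GA20OX5 and GA3OX3 were listed at 0 in all 4 libraries. The tested gene, AT5G58660, annotated as a dioxygenase of the same superfamily, had 1.21 and 0.79 FPKM in the WT libraries and 1.34 and 2.06 in the jmj28-3 libraries (log2 change 0.43, adjusted p = 0.274 in limma). Among 4 other genes of gibberellin inactivation, CYP714A1 (ELA1) alone was tested, at 1.41 and 1.34 FPKM in the WT libraries and 1.36 and 1.78 in the jmj28-3 libraries (adjusted p = 0.722 in limma).

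Limma called 0 of the 3 receptor genes, and 0 at an unadjusted p under 0.05. The receptor gene GID1A had 7.94 and 9.62 FPKM in the WT libraries and 10.1 and 10.98 in the jmj28-3 libraries (log2 change 0.24, adjusted p = 0.267 in limma), and GID1C had a log2 change of 0.10 (adjusted p = 0.629 in limma). Among 9 tested genes for DELLA proteins and their regulators, 0 were called, and 2 differed at an unadjusted p under 0.05, where 24.2% of all tested genes did. The DELLA gene RGL2 came nearest, with 4.19 and 3.11 FPKM in the WT libraries and 1.9 and 1.79 in the jmj28-3 libraries (log2 change -0.70, SE 0.155, adjusted p = 0.0572 in limma). The DELLA gene GAI had 17.04 and 16.85 FPKM in the WT libraries and 22.39 and 19.99 in the jmj28-3 libraries (log2 change 0.30, adjusted p = 0.0867 in limma).

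Calls among transport and response genes fell on 4 genes, 3 lower and 1 higher, where 3.79% of all tested genes were called lower and 4.18% higher. NPF3.1 (AT1G68570), for a transporter that carries gibberellin in roots, fell from 32.72 and 33.28 FPKM in the WT libraries to 18.51 and 16.7 in the jmj28-3 libraries (log2 change -0.87, SE 0.075, adjusted p = 0.00463 in limma), and the other 2 transport genes, SWEET13 and SWEET14, were not called. In the GASA family, small cysteine-rich proteins regulated by gibberellin, GASA14 (AT5G14920) rose from 21.43 and 16.14 FPKM to 32.47 and 34.63 (log2 change 0.82, adjusted p = 0.0264 in limma), and 6 of 7 tested genes were not called. Of 10 tested factors and targets of DELLA signalling, 2 fell and 8 were not called, beside 3.79% called lower among all tested genes. SCL3, a GRAS protein whose transcript DELLA proteins raise, fell from 9.49 and 10.39 FPKM to 6.39 and 6.55 (log2 change -0.55, adjusted p = 0.0265 in limma). EXPA8, a cell wall expansin, fell from 155.06 and 174.37 FPKM to 113.28 and 108.83 (log2 change -0.56, adjusted p = 0.0122 in limma). The call on NPF3.1 was lost without jmj28-3 replicate 2 (adjusted p = 0.0644). Those on SCL3 were lost without any 1 library (adjusted p from 0.0882 to 0.179), and those on EXPA8 and GASA14 on leaving out WT replicate 2 (adjusted p = 0.0507 and 0.0514), jmj28-3 replicate 1 (adjusted p = 0.0766 and 0.126) or jmj28-3 replicate 2 (adjusted p = 0.135 and 0.206). With no filter on low values SCL3 and GASA14 were not called (adjusted p = 0.0617 and 0.0681 in limma), and with no variance trend EXPA8 and GASA14 were not (adjusted p = 0.0559 and 0.0688 in limma).

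Of 10 tested regulators that act on oxidase genes, 4 rose, 0 fell and 6 were not called, where 4.18% of all tested genes were called higher and 3.79% lower. None of the 4 was called with no filter on low values (adjusted p from 0.0687 for TCP14 to 0.096 for TEM2 in limma) or with no variance trend (adjusted p from 0.075 for TCP14 to 0.0944 for PIF1 in limma). TEM1 and TEM2, RAV-type repressors known to act on GA3OX1 and GA3OX2, had log2 changes of 1.05 and 1.15 (adjusted p = 0.0336 and 0.0407 in limma), with TEM1 at 21.11 and 32.35 FPKM in the WT libraries and 57.82 and 53.04 in the jmj28-3 libraries. TCP14, a TCP factor that DELLA proteins bind, rose from 22.63 and 28.09 FPKM to 40.3 and 39.12 (log2 change 0.63, adjusted p = 0.029 in limma). PIF1, a bHLH factor that lowers GA3OX1 and GA3OX2 transcripts in seeds kept in the dark, rose from 17.29 and 19.13 FPKM to 23.4 and 25.3 (log2 change 0.40, adjusted p = 0.0475 in limma). Of these targets, GA3OX2 was lower and GA3OX1 was not called, with a log2 change of 0.19. Whether the regulators bear on the oxidase genes in these seedlings was not tested. SVP, a MADS-box repressor of GA20OX2, had a log2 change of -0.02. Without jmj28-3 replicate 1 and without jmj28-3 replicate 2 all 4 calls were lost, with adjusted p of 0.169 and 0.2 for TEM1, 0.189 and 0.213 for TEM2, 0.154 and 0.192 for TCP14 and 0.144 and 0.277 for PIF1. Without WT replicate 1 TCP14 (adjusted p = 0.068) and PIF1 (adjusted p = 0.176) were also lost, and PIF1 again without WT replicate 2 (adjusted p = 0.0979).

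Over the 9 lists together, 48 of 63 genes were tested, with 5 called higher, 3 called lower and 40 left uncalled, beside 4.18% higher and 3.79% lower among all tested genes. Their median log2 change was 0.08.

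**Figure D4:**
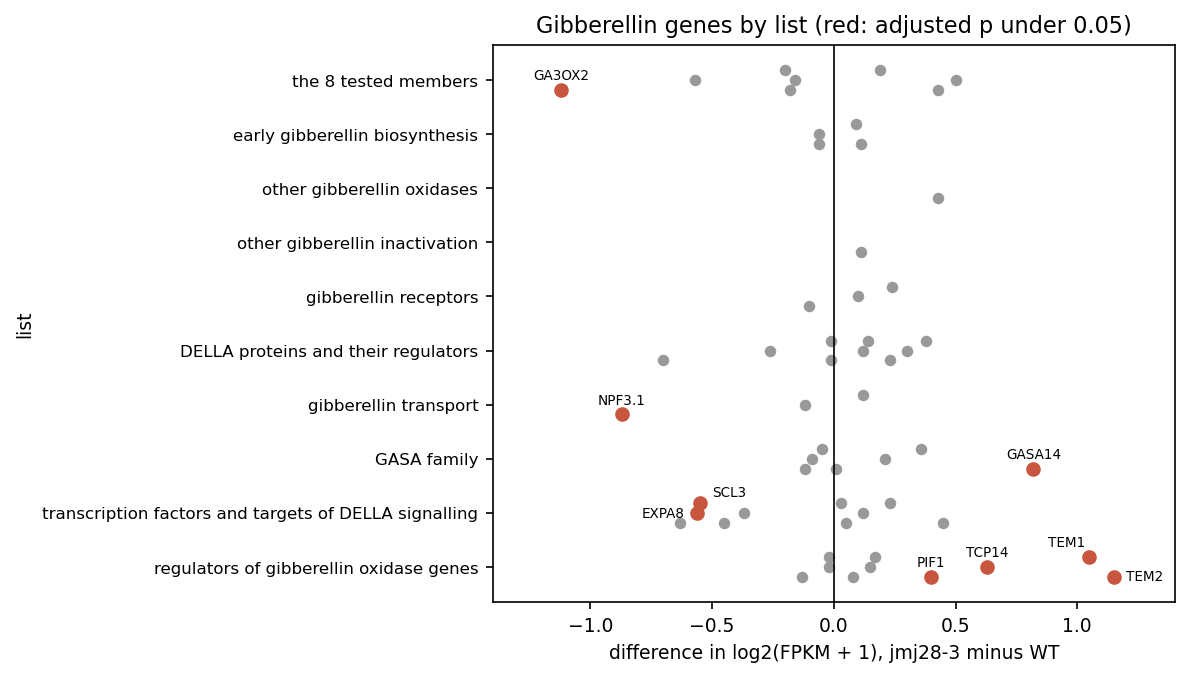
Difference in log2(FPKM + 1) between jmj28-3 and WT for the tested genes of each gibberellin list, with a dot for each gene, vertical offsets only to separate dots, and red for an adjusted p under 0.05 in limma. GA3OX2 at -1.12 and NPF3.1 at -0.87 were the lowest points, and TEM1 at 1.05 and TEM2 at 1.15 the highest.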

How the data were processed

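The authors deposited FPKM, rounded to 2 decimals, in 4 columns, and the labels tied each column to a library (0 value columns were left over). TopHat, RSEM and edgeR, with the build TAIR10, are named in the submitters' processing notes. Their versions, settings and use of strand are not given in the sources used here. FPKM hold no read counts, so log2(FPKM + 1) was tested by limma (3.58.1, R 4.3.3) for genes with a mean of at least 0.5 FPKM over the 4 libraries. Genotype was the only term, eBayes used a variance trend, and two-sided p-values were adjusted by Benjamini-Hochberg over 20232 genes. Log2 changes on this scale understate the change of low genes. Fold values are ratios of mean FPKM. The step was tested on simulated data, with changes added only to genes with a mean log2(FPKM + 1) above 2. GA3OX1 and GA2OX6 were the only tested members above that level. The simulation therefore does not cover the call on GA3OX2 or the results of the other tested members. Gene models and coding sequences came from RefSeq TAIR10.1 by identifier, and the table carries no coordinates. Coding sequences were aligned with Biopython 1.88. Upstream sequences are not reported here.

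All 10 members are named. From each of 9 gibberellin lists all called genes are named, or, where none was called, the 2 with the smallest p. Further genes (CPS, SVP, SWEET13, SWEET14, GA20OX5, GA3OX3 and tissue markers) were named after their values were seen. The members and lists were chosen with earlier results of these data known, so no test over a list is given. Alternatives were other pseudocounts, filters, scalings and variance models, a replicate block, and leaving out each library.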

Additional observations from a re-analysis of the deposited data

How the results depend on the processing

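GA3OX2 kept its direction under all 14 alternatives (log2 change from -1.64 to -1.04, adjusted p from 0.00891 to 0.1 in limma), and its call was lost only in the 4 fits on 3 libraries, in which the lone library of a genotype is assumed to vary like the other genotype. No other tested member was called or changed sign under any alternative. Lowering the pseudocount to 0.1 moved GA20OX2 to 0.87 and GA20OX1 to -0.77. The number of members called lower was 1 in the fits on 4 libraries and 0 in each leave-out. Over all genes, the calls higher and lower were 526 and 351 with no filter on low values, 534 and 328 with the replicate block, 469 and 287 with no variance trend, and 70 to 398 and 21 to 164 in the leave-outs; the cause was not tested beyond fewer libraries or more genes entering the fit. In the GASA family, 0 genes were higher with no filter, the replicate block and no variance trend, 2 with median-of-ratios scaling, and 0 to 1 in the leave-outs. Among factors and targets of DELLA signalling, 1 was lower with no filter, the replicate block and no variance trend, and 0 to 1 in the leave-outs. Among regulators of oxidase genes, 0 were higher with no filter, the replicate block and no variance trend, and 0 to 3 in the leave-outs. In the transport list 0 to 1 were lower in the leave-outs. TEM2 was not called with quantile normalization (adjusted p = 0.0519) nor PIF1 when libraries were rescaled to the same sum (adjusted p = 0.0518). Over the leave-outs, log2 changes near 0 turned in sign for GID1C (-0.02 to 0.23, lowest without WT replicate 1), KAO2 (-0.12 to 0.00, highest without jmj28-3 replicate 2) and CYP714A1 (-0.01 to 0.23, lowest without jmj28-3 replicate 2).

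Replicate numbers are shared by the genotypes, but nothing in the labels pairs them, and the deviations of same-numbered libraries from their genotype means had a weak negative correlation (r = -0.133 over 20232 genes). With the replicate block, GA3OX2 was still called, while GASA14, SCL3, TEM1, TEM2, PIF1 and TCP14 were not. A block with the numbers crossed, added after seeing the data, called 1158 genes higher and 1129 lower, with 1 DELLA gene lower, 3 GASA genes higher and 4 factors and targets of DELLA signalling lower.

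The number of reads is unknown, so no counting interval can be given, and members near 0.3 FPKM were below the level required for a test.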
